A study of Homo sapiens with 9 samples.

Results

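The genes described here are the collagen genes, all genes whose symbol has the form COL, a number, A and a number. A collagen gene was counted as measured where the array held at least 1 probe set that the platform annotation gave to that gene alone, and the probe set whose 9 values had the highest mean stood for the gene. In this way 43 collagen genes were measured among 19775 genes. They had 112 probe sets, and 35 of the genes had more than 1. COL17A1 was not analysed here.

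Collagens are secreted proteins whose chains wind around each other into a rope-like helix of glycine-rich repeats. Fibrillar collagens pack into the tensile fibrils of connective tissue, type IV chains form the sheet of basement membranes, type VI chains form beaded filaments around cells, and type VII forms fibrils that anchor epithelium to the tissue below it. FACIT collagens are non-fibrillar chains with interrupted helices, several of which sit on the surface of fibrils, and transmembrane collagens stay on the cell surface. Many helices combine different chains, for example COL1A1 with COL1A2 in type I collagen, so that the genes of chain partners are read side by side. Embryonic stem cells grow as epithelium-like colonies that rest on a basement membrane, of which type IV collagen is a main constituent.

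RNA came from the WA09 line, an established human embryonic stem cell line, in 3 groups of 3 arrays. Pluripotent arrays are from cells without treatment. Damage arrays are from cells kept for 5 h with DOX (doxorubicin, which poisons topoisomerase II and so breaks DNA). Differentiating arrays are from cells kept for 2 days with 1 µM retinoic acid (RA) in a medium without added FGF, so this group differs from the others in that growth factor too. According to the labels, all cells were at passages 32 to 38 and were kept either on irradiated mouse embryonic fibroblast feeders or feeder-free on Matrigel, a basement membrane extract. Which culture gave each array is not stated. The labels do not say whether the arrays of a group came from separate cultures, so each p-value measures the spread among these arrays alone, and that spread may be technical.

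All levels are log2 intensities after normalisation between arrays by RMA. Probes bind with different strength, so 1 gene's level cannot be set against another's, and a level is only called above or below the median probe set of its array, which lay between 4.62 and 4.68. Correlations across genes between arrays of a group were 0.996 to 0.998. The label was checked with stem cell markers. The 5 of 7 markers that were measured lay above the median probe set on every array, and their summed linear level was 31158 to 33312 on pluripotent, 29308 to 32340 on damage and 36524 to 38102 on differentiating arrays. After DOX 0 of the 5 passed (limma, and 0 at an unadjusted p under 0.05), against 15.3% of all genes. After RA 1 passed (20% against 6.47% of all genes), and 4 of the 5 were at an unadjusted p under 0.05. Of all 19775 genes, 5362 after DOX and 3447 after RA were at an unadjusted p under 0.05. These are the background for such counts here and below. The 1 marker that passed after RA was NANOG, a core pluripotency factor, which fell by 0.34 on the log2 scale (limma adjusted p = 0.036). The other 4 (LIN28A, DNMT3B, ZFP42 and PODXL) did not pass, and each was higher on all RA arrays than on all pluripotent arrays, with changes from 0.10 to 0.27. The RA and pluripotent arrays did not overlap for any of the 5 (100% against 22.6% of all genes).

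The promoters of a few collagens the results turn on are given first. The RefSeq promoter table (build GRCh38.p14) held 43 windows for 31 of the 43 genes. Those without a window include COL1A1, COL1A2, COL3A1, COL5A2, COL6A1, COL8A1, COL9A3 and COL22A1. Their promoters are therefore not shown and do not enter the motif shares below. The stretches below are the 250 bases before the start of transcription of COL7A1 (chr3:48595330-48595579, minus strand), COL12A1 (chr6:75206054-75206303, minus strand) and COL16A1 (chr1:31704018-31704267, minus strand). These 3 genes were called higher after DOX, and all 3 were lower on the RA arrays than on the DOX arrays. Capitals mark the GC box, GGGCGG or its complement CCGCCC, which Sp-family factors are known to bind.
COL7A1: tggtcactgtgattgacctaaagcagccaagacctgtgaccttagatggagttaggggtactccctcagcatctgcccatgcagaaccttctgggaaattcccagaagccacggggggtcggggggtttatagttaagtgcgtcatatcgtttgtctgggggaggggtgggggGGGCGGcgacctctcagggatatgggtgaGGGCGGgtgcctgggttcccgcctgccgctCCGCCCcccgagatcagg
COL12A1: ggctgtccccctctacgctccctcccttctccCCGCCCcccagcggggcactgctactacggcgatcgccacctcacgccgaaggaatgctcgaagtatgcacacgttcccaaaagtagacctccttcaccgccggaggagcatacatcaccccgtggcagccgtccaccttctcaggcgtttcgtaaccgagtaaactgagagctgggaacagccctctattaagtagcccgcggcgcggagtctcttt
COL16A1: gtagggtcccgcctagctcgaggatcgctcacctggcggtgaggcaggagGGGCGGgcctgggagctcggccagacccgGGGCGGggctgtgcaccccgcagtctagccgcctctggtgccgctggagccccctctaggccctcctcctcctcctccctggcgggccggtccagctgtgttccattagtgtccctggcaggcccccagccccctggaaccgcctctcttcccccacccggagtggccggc
The COL7A1 stretch held 3 GC boxes, which began 77, 48 and 18 bases before the start, the COL16A1 stretch held 2, at 200 and 171 bases, and the COL12A1 stretch held 1, at 218 bases. The COL7A1 stretch also held the TATA box letters TATAAA on the other strand at 124 bases, and the retinoid half-site letters AGGTCA on the other strand at 237 and 214 bases.

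A further promoter is shown because 2 collagen genes share it. COL4A1 and COL4A2 lie head to head, and the 126 bases between their starts (chr13:110307158-110307283, plus strand, reading toward COL4A2) serve both as upstream sequence. Capitals mark 1 CCAAT box (CCAAT) and 1 GC box (GGGCGG).
COL4A1/COL4A2: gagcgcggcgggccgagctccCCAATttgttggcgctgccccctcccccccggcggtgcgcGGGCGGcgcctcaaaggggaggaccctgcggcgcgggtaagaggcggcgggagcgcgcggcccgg
Each motif was searched on both strands in windows from 250 bases before to 50 bases after a start, 300 bases long, in 35116 windows of all genes. The GC box was present in 55.8% of collagen windows and 45.0% of all windows, and TATAAA in 16.3% and 11.5%. CCAAT was present in 30.2% of collagen windows and 34.6% of all. The AP-1 letters TGANTCA were present in 2.33% of collagen windows and 7.71% of all, and AGGTCA in 2.33% and 13.8%. The p53 response element was searched as a pair of exact consensus half-sites with a spacer of up to 13 bases. It was present in 0 of 43 collagen windows and 0.0285% of all (10 of 35116). So rare a match cannot set collagen windows apart. These shares describe letters in the windows and were not tested. Each motif was counted whether or not its match overlapped one of another motif.

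Of the 43 collagens, 29 lay above the median probe set on all 9 arrays, 10 below it on all 9, and 4 on some. After DOX 7 collagens rose and 2 fell, which is 20.9% of the 43 against 15.3% of all genes called. Among all genes 5.67% rose and 9.6% fell. After RA 2 collagens rose and 8 fell, 23.3% against 6.47% of all genes, of which 3.16% rose and 3.32% fell. The median log2 change of the collagens was 0.07 after DOX and -0.10 after RA, against -0.00 in each over all genes. The arrays did not overlap with the pluripotent arrays for 18 collagens after DOX (41.9% against 28.9% of all genes) and for 16 after RA (37.2% against 22.6%). Both comparisons use the same 3 pluripotent arrays. In these bulk samples fewer cells that make a collagen and less of its RNA per cell cannot be told apart.

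Some markers of stroma, which makes most collagen in tissues, also differed between the groups. Of 14 fibroblast and stromal markers, 5 rose and 1 fell after DOX (42.9% against 15.3% of all genes), and 0 rose and 3 fell after RA (21.4% against 6.47%). Their summed linear level was 2645 to 2927 on pluripotent, 6395 to 6621 on damage and 1421 to 1509 on differentiating arrays, without overlap. Such a sum, here and below, weighs the brightest markers most. The median log2 change of the 14 was 0.19 after DOX and -0.05 after RA, and 8 and 11 of them were not called. The 1 that fell after DOX changed by -0.42. TAGLN, a contractile protein of smooth muscle and stroma, rose by 1.59 after DOX (limma adjusted p = 3.0e-06) and fell by 1.76 after RA (adjusted p = 2.8e-06). ACTA2, smooth muscle actin, rose by 1.70 after DOX (adjusted p = 2.7e-06) and differed by -0.03 after RA. FAP, PRRX1, LUM and POSTN, which also mark stroma, were below the median probe set on all 9 arrays. The summed level of 6 trophoblast and amnion markers was 177 to 185 on pluripotent, 234 to 274 on damage and 893 to 1233 on differentiating arrays, with CGA and VTCN1 below the median probe set on all arrays. For 7 endoderm markers the sums were 1701 to 1823, 1918 to 2042 and 1462 to 1537 in the same order, with SOX17, GATA6 and FOXA2 below. For 5 endothelial markers they were 387 to 475, 317 to 347 and 342 to 376, with CDH5 and VWF below, and for 6 chondrocyte markers 1256 to 1296, 1113 to 1202 and 1152 to 1277, with MATN3 below. The part of these cell types in the collagen results was not tested.

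**Figure D1:**
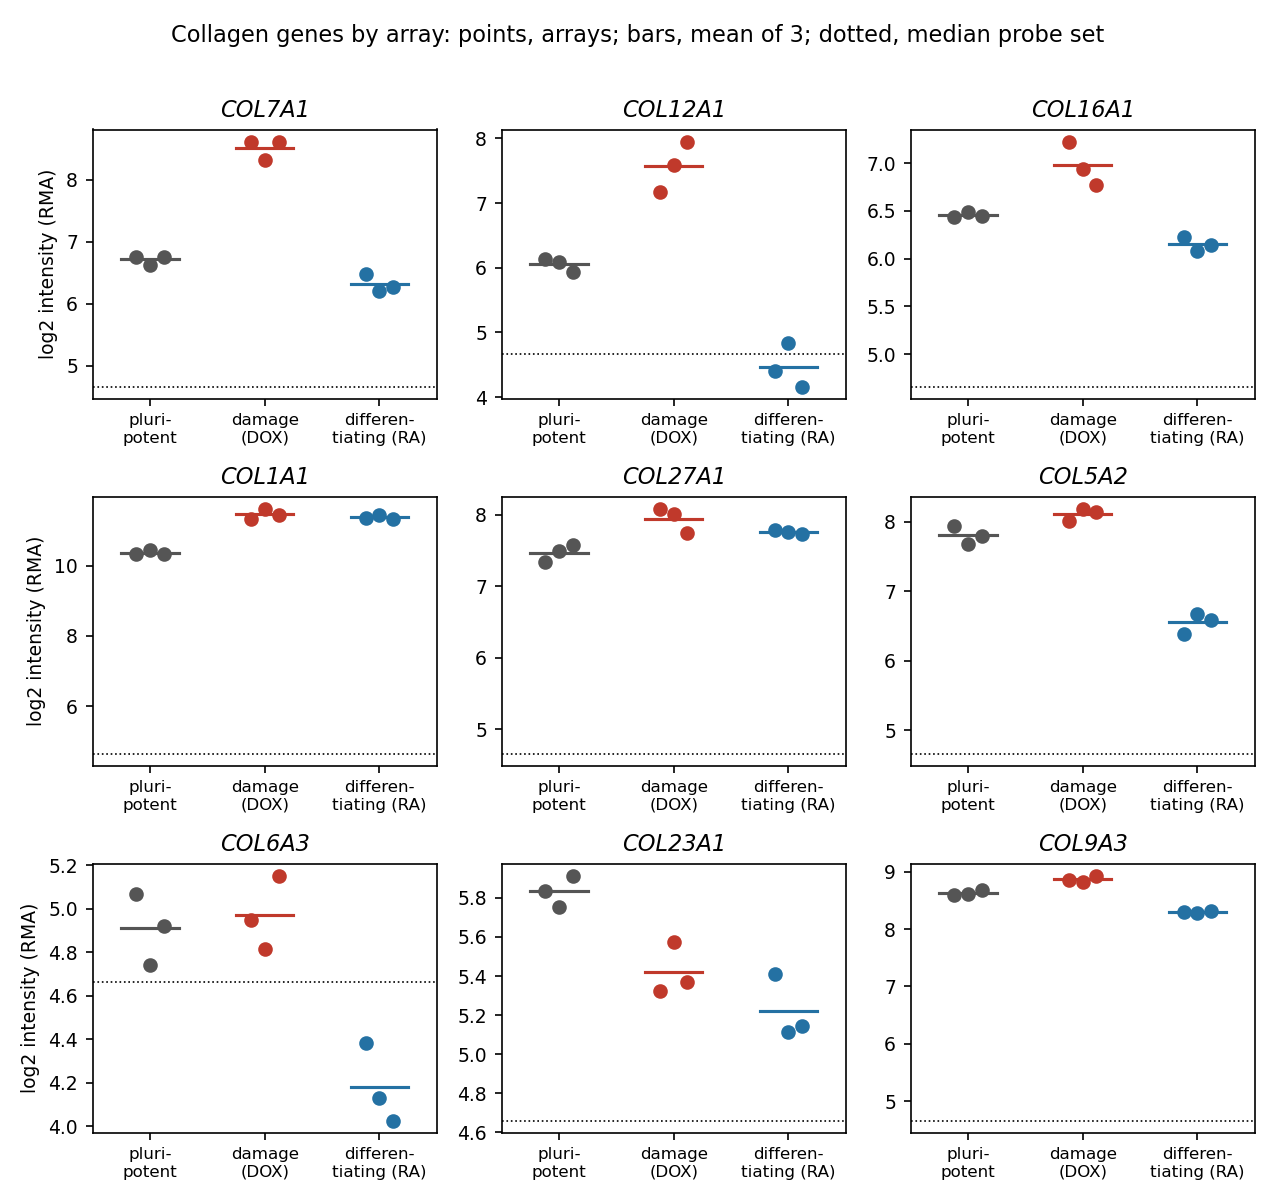
Log2 intensity of 9 collagen genes on each of the 9 arrays, by condition, where each point is 1 array, each bar a group mean and the dotted line the median probe set, with axes that differ between genes. COL7A1 and COL12A1 are highest on the damage arrays, COL5A2 and COL6A3 are lowest on the differentiating arrays, and COL1A1 is raised in both treated groups.

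Among the 11 fibrillar collagens, 3 rose and 0 fell after DOX (27.3% against 15.3% of all genes). After RA 2 rose and 2 fell (36.4% against 6.47%). COL1A1, the main chain of type I collagen, stood at 10.32, 10.45 and 10.33 on the pluripotent arrays, 11.32, 11.61 and 11.42 on the damage arrays and 11.34, 11.44 and 11.32 on the differentiating arrays. Every treated array lay above every untreated one, and the treated groups overlapped. The gene rose by 1.08 (SE 0.09, 2.12-fold, limma adjusted p = 1.3e-05, n = 3 per group) after DOX and by 1.00 (2.00-fold, adjusted p = 3.9e-05) after RA. Between the treated groups it differed by -0.08 (95% interval -0.27 to 0.11). Averaged over all 5 of its probe sets the rise was 0.61 after DOX and 0.55 after RA.

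Its partner COL1A2, the other chain of type I collagen, stood at 9.47, 9.35 and 9.26, then at 9.38, 9.50 and 9.39 after DOX and 9.27, 9.27 and 9.15 after RA. The groups lay close together. The change was 0.07 after DOX (95% interval -0.10 to 0.24) and -0.13 after RA (-0.30 to 0.04), neither called. Within each array, COL1A1 minus COL1A2 was 0.85, 1.11 and 1.07 on the pluripotent arrays, 1.93, 2.11 and 2.03 on the damage arrays and 2.07, 2.17 and 2.16 on the differentiating arrays. This difference had shifted by 1.01 after DOX and 1.13 after RA, without overlap between treated and untreated arrays. The two-sided exact permutation p was 0.1 for each, the smallest that 3 against 3 arrays can give (0.257 adjusted over 18 tests of 9 partner pairs). With the mean of all probe sets the shifts were 0.47 and 0.62.

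The type V chains help set fibril diameter. COL5A2 stood at 7.94, 7.68 and 7.79 on the pluripotent arrays, 8.01, 8.19 and 8.14 on the damage arrays and 6.39, 6.68 and 6.59 on the differentiating arrays. The differentiating arrays were all far below the rest. It fell by 1.26 after RA (SE 0.10, 2.39-fold lower, limma adjusted p = 1.7e-05), and its second probe set gave -1.41. After DOX its change was 0.30 (adjusted p = 0.061), which was not called.

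COL5A1 stood at 6.55, 6.53 and 6.37 on the pluripotent arrays, 6.76, 6.76 and 6.87 on the damage arrays and 6.35, 6.51 and 6.26 on the differentiating arrays. Its damage arrays were above all others, and the pluripotent and differentiating arrays overlapped. It rose by 0.32 after DOX (adjusted p = 0.028, a call lost in 6 of 15 other settings) and differed by -0.11 after RA (adjusted p = 0.61). Its second probe set, also above the median probe set on all arrays, gave 0.02 after DOX and -0.32 after RA. Fitted alone among all probe sets, 0 of its 3 probe sets passed after DOX. COL5A1 minus COL5A2 within an array was -1.40, -1.16 and -1.43 on the pluripotent arrays and -0.03, -0.16 and -0.33 on the differentiating arrays, a shift of 1.15 without overlap (two-sided exact permutation p = 0.1, and 0.257 adjusted over 18 tests). The shift after DOX was 0.01. Of the other pairs, COL11A1 minus COL11A2 shifted by -0.36 and COL4A1 minus COL4A2 by -0.18 after RA, and COL6A1 minus COL6A3 by -0.33 after DOX, each without overlap and with a two-sided exact permutation p of 0.1. The last was -0.10 with the mean of all probe sets. COL9A1 minus COL9A3 after RA also shifted without overlap, as given below.

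COL27A1, a fibrillar chain of developing cartilage, stood at 7.34, 7.49 and 7.57 on the pluripotent, 8.08, 8.01 and 7.74 on the damage and 7.78, 7.76 and 7.73 on the differentiating arrays. Both treated groups lay above the pluripotent arrays. It rose by 0.48 after DOX (adjusted p = 0.0068), and its change after RA was 0.29 (adjusted p = 0.13). COL3A1, the chain of type III collagen found beside type I in soft tissue, was 5.28, 5.12 and 5.00 on the pluripotent, 5.39, 5.33 and 5.40 on the damage and 5.60, 5.91 and 5.58 on the differentiating arrays. It rose by 0.57 after RA (1.48-fold, adjusted p = 0.0060), a call made on 1 of its 5 probe sets. The other 4 were below the median probe set, and the mean of all 5 gave 0.21 (adjusted p = 0.075).

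COL11A1, which takes part in the thin fibrils of cartilage, stood at 6.84, 6.55 and 6.51 on the pluripotent, 6.49, 6.76 and 6.61 on the damage and 6.10, 6.18 and 6.29 on the differentiating arrays. The differentiating arrays were the lowest, while the other groups overlapped. It fell by 0.44 after RA (adjusted p = 0.028), a call lost in 6 of 15 other settings. Its partner COL11A2 changed by -0.08 after RA (adjusted p = 0.70). The 5 fibrillar genes that passed in no comparison were COL1A2, COL11A2 and 3 others, of which 1 lay below the median probe set on all arrays.

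No type IV collagen passed the test after DOX or after RA (limma, 0 of 6 in each, against 15.3% and 6.47% of all genes). With 6 genes, a count of 0 is close to those shares. At an unadjusted p under 0.05 the count was 1 after DOX and 0 after RA. COL4A1 and COL4A2 form the common helix of basement membranes. COL4A1 stood at 9.59, 9.62 and 9.72 on the pluripotent, 9.79, 9.88 and 9.87 on the damage and 9.59, 9.56 and 9.49 on the differentiating arrays. Its damage arrays lay just above the rest. The change after DOX was 0.21 (adjusted p = 0.069, past the threshold in 6 of 15 other settings). COL4A2 stood at 9.55, 9.67 and 9.48, then 9.68, 9.55 and 9.66, and then 9.69, 9.62 and 9.61, with all groups overlapping.

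COL4A5 and COL4A6, chains of specialised basement membranes that include those of muscle and epithelium, were above the median probe set on all arrays. COL4A5 changed by -0.21 after DOX (adjusted p = 0.21) and -0.13 after RA (0.61), and COL4A6 by -0.04 and -0.11. COL4A3 and COL4A4, chains of the mature kidney filter membrane, lay below the median probe set on all 9 arrays. The 3 short-chain network collagens also passed in neither comparison, against 15.3% and 6.47% of all genes. In each, 1 of 3 was at an unadjusted p under 0.05. COL8A1, a chain of the sheet beneath vessel and corneal endothelium, was 4.56, 4.18 and 4.25 on the pluripotent, 4.22, 5.18 and 5.01 on the damage and 3.72, 4.05 and 3.74 on the differentiating arrays. Only 2 of its 9 values were above the median probe set. After DOX it changed by 0.48 (adjusted p = 0.18), and without damage replicate 1 by 0.77 (adjusted p = 0.0059).

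Among the 5 type VI collagens 1 fell after DOX (20% against 15.3% of all genes) and 2 after RA (40% against 6.47%). COL6A3, the large chain that carries most of the adhesive domains of the filament, stood at 5.07, 4.74 and 4.92 on the pluripotent, 4.95, 4.81 and 5.15 on the damage and 4.38, 4.13 and 4.03 on the differentiating arrays. The differentiating arrays were all below the median probe set and the others above it. It fell by 0.73 after RA (SE 0.12, 1.66-fold lower, adjusted p = 0.0039), a fold that may be a lower bound because dim values are compressed. After DOX it differed by 0.06 (adjusted p = 0.80).

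COL6A1 was 9.33, 9.38 and 9.37 on the pluripotent, 9.09, 9.04 and 9.14 on the damage and 8.88, 8.77 and 8.78 on the differentiating arrays. The 3 groups did not overlap. It fell by 0.27 after DOX (adjusted p = 0.018) and by 0.55 after RA (adjusted p = 4.4e-04). Both calls rest on 1 of its 8 probe sets. The mean of all 8 gave -0.03 and -0.12, and without probe sets of the suffixes s_at and x_at the changes were 0.019 and 0.030. COL6A2, the neighbouring gene and the chain partner, changed by -0.19 (adjusted p = 0.48) and -0.49 (0.11). The other 2 type VI genes lay below the median probe set on all arrays.

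COL7A1, the only chain of the anchoring fibril, had the largest rise of any collagen after DOX. It stood at 6.76, 6.62 and 6.76 on the pluripotent arrays, 8.61, 8.31 and 8.60 on the damage arrays and 6.48, 6.20 and 6.27 on the differentiating arrays. The damage arrays lay well above all others and the differentiating arrays lay below the rest. The gene rose by 1.80 after DOX (SE 0.10, 3.47-fold, limma adjusted p = 9.6e-07), and its second probe set rose by 1.25. It fell by 0.40 after RA (adjusted p = 0.045), a call lost in 7 of 15 other settings with adjusted p of up to 0.174.

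Of the 10 FACIT collagens, 3 rose after DOX (30% against 15.3% of all genes) and 2 fell after RA (20% against 6.47%). COL12A1, which coats type I fibrils in tendon and other dense tissue, was the one with the largest range. It stood at 6.13, 6.10 and 5.93 on the pluripotent, 7.18, 7.58 and 7.95 on the damage and 4.41, 4.84 and 4.16 on the differentiating arrays. The groups were fully separate, and differentiating arrays 1 and 3 lay below the median probe set. It rose by 1.52 after DOX (SE 0.20, 2.86-fold, adjusted p = 4.2e-04) and fell by 1.58 after RA (SE 0.20, n = 3 per group, adjusted p = 5.2e-04). The size of the fall may be a lower bound, since dim values are compressed. When all 5 probe sets were averaged, of which 4 were dim, the changes were 0.63 and -0.43, both called.

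COL16A1, a FACIT chain of fibril networks in skin and cartilage, was 6.44, 6.49 and 6.44 on the pluripotent, 7.22, 6.94 and 6.78 on the damage and 6.23, 6.08 and 6.14 on the differentiating arrays. It was above all others on the damage arrays and lowest on the differentiating arrays. It rose by 0.52 after DOX (1.44-fold, adjusted p = 0.0058), and the change after RA was -0.31 (adjusted p = 0.13). COL9A3, a chain of the type IX collagen that decorates cartilage fibrils, was 8.59, 8.61 and 8.68 on the pluripotent, 8.86, 8.82 and 8.93 on the damage and 8.31, 8.28 and 8.32 on the differentiating arrays. The groups were separate with small spread. It rose by 0.24 after DOX (adjusted p = 0.026, lost in 5 of 14 other settings) and fell by 0.32 after RA (adjusted p = 0.011, and 0.051 without differentiating replicate 2).

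COL9A1, another chain of type IX collagen, stood at 6.54, 6.40 and 6.10 on the pluripotent, 6.33, 6.31 and 6.08 on the damage and 6.81, 6.89 and 6.54 on the differentiating arrays. Its differentiating arrays were the highest, except that 1 was level with a pluripotent array, and the change of 0.40 after RA was not called (adjusted p = 0.11). COL9A1 minus COL9A3 within an array shifted by 0.72 after RA, without overlap (two-sided exact permutation p = 0.1, adjusted 0.257). COL9A2, the remaining type IX chain, had changes of 0.14 and -0.12, neither called.

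Of the 3 transmembrane collagens, COL23A1 passed in both comparisons (33.3% in each, against 15.3% of all genes after DOX and 6.47% after RA). It stood at 5.84, 5.75 and 5.91 on the pluripotent, 5.33, 5.57 and 5.37 on the damage and 5.41, 5.11 and 5.14 on the differentiating arrays. All treated arrays lay below all pluripotent ones, and the treated groups overlapped. It fell by 0.41 after DOX (adjusted p = 0.016) and by 0.61 after RA (adjusted p = 0.0033). The DOX call was lost in 3 of 14 settings, with adjusted p of 0.054 without pluripotent replicate 1, 0.057 without damage replicate 1 and 0.057 without damage replicate 3. The 2 multiplexins, basement membrane collagens with sugar side chains of which COL18A1 is one, were called in neither comparison (limma). Of all genes 15.3% and 6.47% were called. At an unadjusted p under 0.05 the multiplexin count was 0 of 2 in each. Nor were the 2 genes outside these classes called, COL26A1 and 1 other, also with 0 at an unadjusted p under 0.05.

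**Figure D2:**
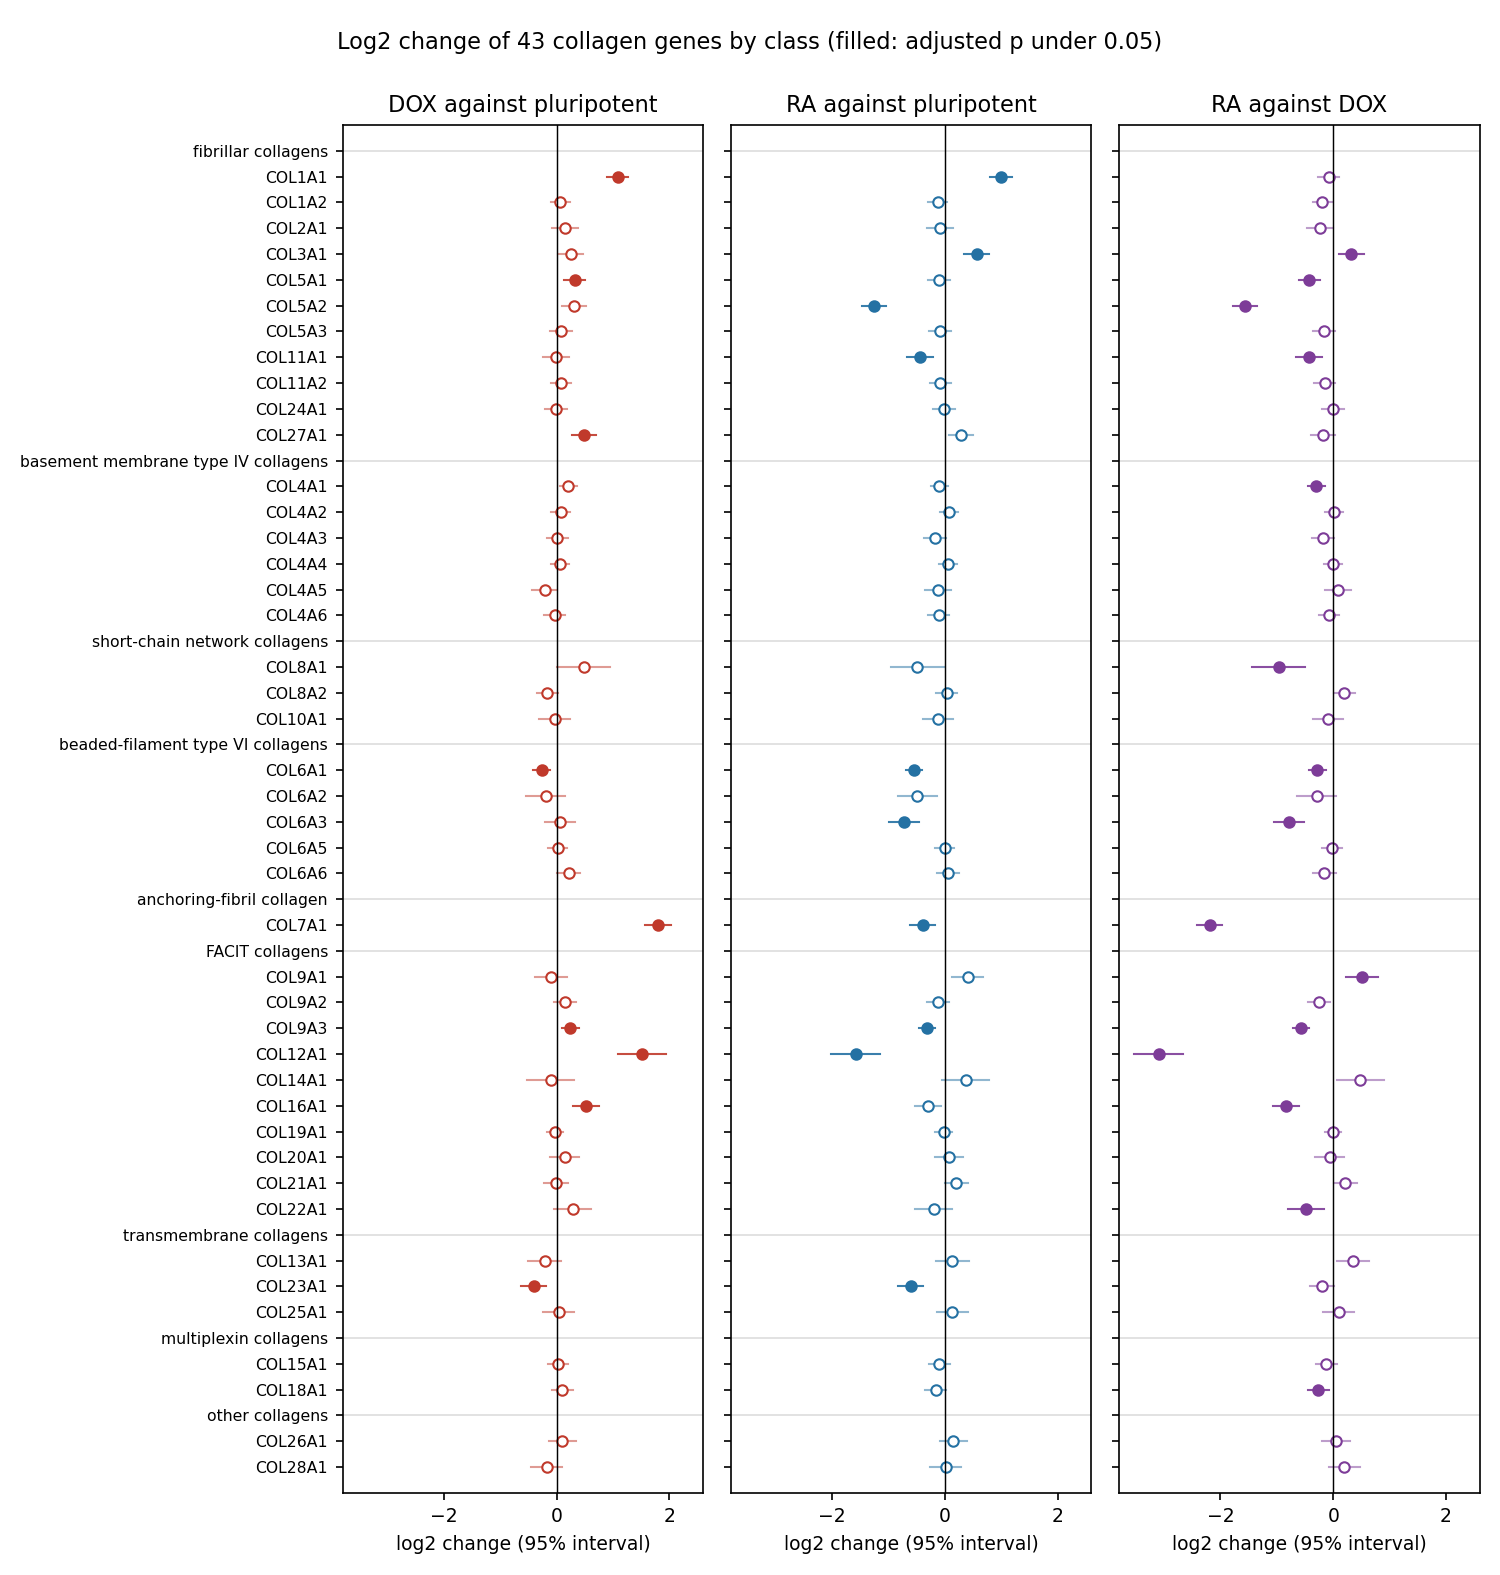
Log2 change of each of the 43 collagen genes by class, for DOX and RA against the pluripotent arrays and for RA against DOX, with bars for the 95% interval and filled points for calls at adjusted p under 0.05. COL7A1, COL12A1 and COL1A1 lie farthest to the right after DOX, and COL12A1 and COL5A2 farthest to the left after RA.

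When the RA arrays were set directly against the DOX arrays, 2 collagens were higher and 13 lower, 34.9% of the 43 against 21.2% of all genes called. Among all genes 12.6% were higher and 8.62% lower, and the median collagen change was -0.16. The groups did not overlap for 21 collagens (48.8% against 34.8% of all genes). COL12A1 was lower by -3.10 on the log2 scale (8.57-fold lower, adjusted p = 1.3e-06), COL7A1 by -2.19 (4.57-fold lower, adjusted p = 1.2e-07) and COL5A2 by -1.56 (adjusted p = 1.2e-06). COL8A1 differed by -0.97 (adjusted p = 0.0076), COL16A1 by -0.83 (2.0e-04), COL6A3 by -0.79 (8.0e-04) and COL9A3 by -0.57 (9.9e-05). With the mean of its 5 probe sets COL12A1 differed by -1.06.

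The other lower genes were COL22A1, COL11A1, COL5A1, COL4A1, COL6A1 and COL18A1, with differences from -0.48 to -0.27. COL4A1 was lower by -0.30 (adjusted p = 0.0081), and its second probe set by -0.65, while COL4A2 differed by 0.01 (adjusted p = 0.96). COL9A1 was higher by 0.51 (adjusted p = 0.016, lost in 4 of 15 other settings) and COL3A1 by 0.32 (adjusted p = 0.044, lost in 9 of 14). COL22A1, a chain of tissue junctions such as that of muscle and tendon, differed by -0.48 (adjusted p = 0.040, lost in 7 of 14), and COL18A1, the source of endostatin, by -0.27 (adjusted p = 0.045, lost in 6 of 14). The calls that held in every planned setting that gave the gene a value numbered 9 of 15 here, 5 of 9 after DOX and 5 of 10 after RA. COL1A1 (after DOX and after RA) and COL9A3 (here) are among them but have no value where x_at and s_at probe sets were left out. COL23A1 (after RA), COL6A3 (after RA and here) and COL8A1 (here) are also among them. These have no value where only genes above the median level of all genes were kept. The calls that so held after DOX were COL7A1, COL12A1, COL16A1, COL1A1 and COL27A1. After RA they were COL12A1, COL1A1, COL23A1, COL5A2 and COL6A3.

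**Figure D3:**
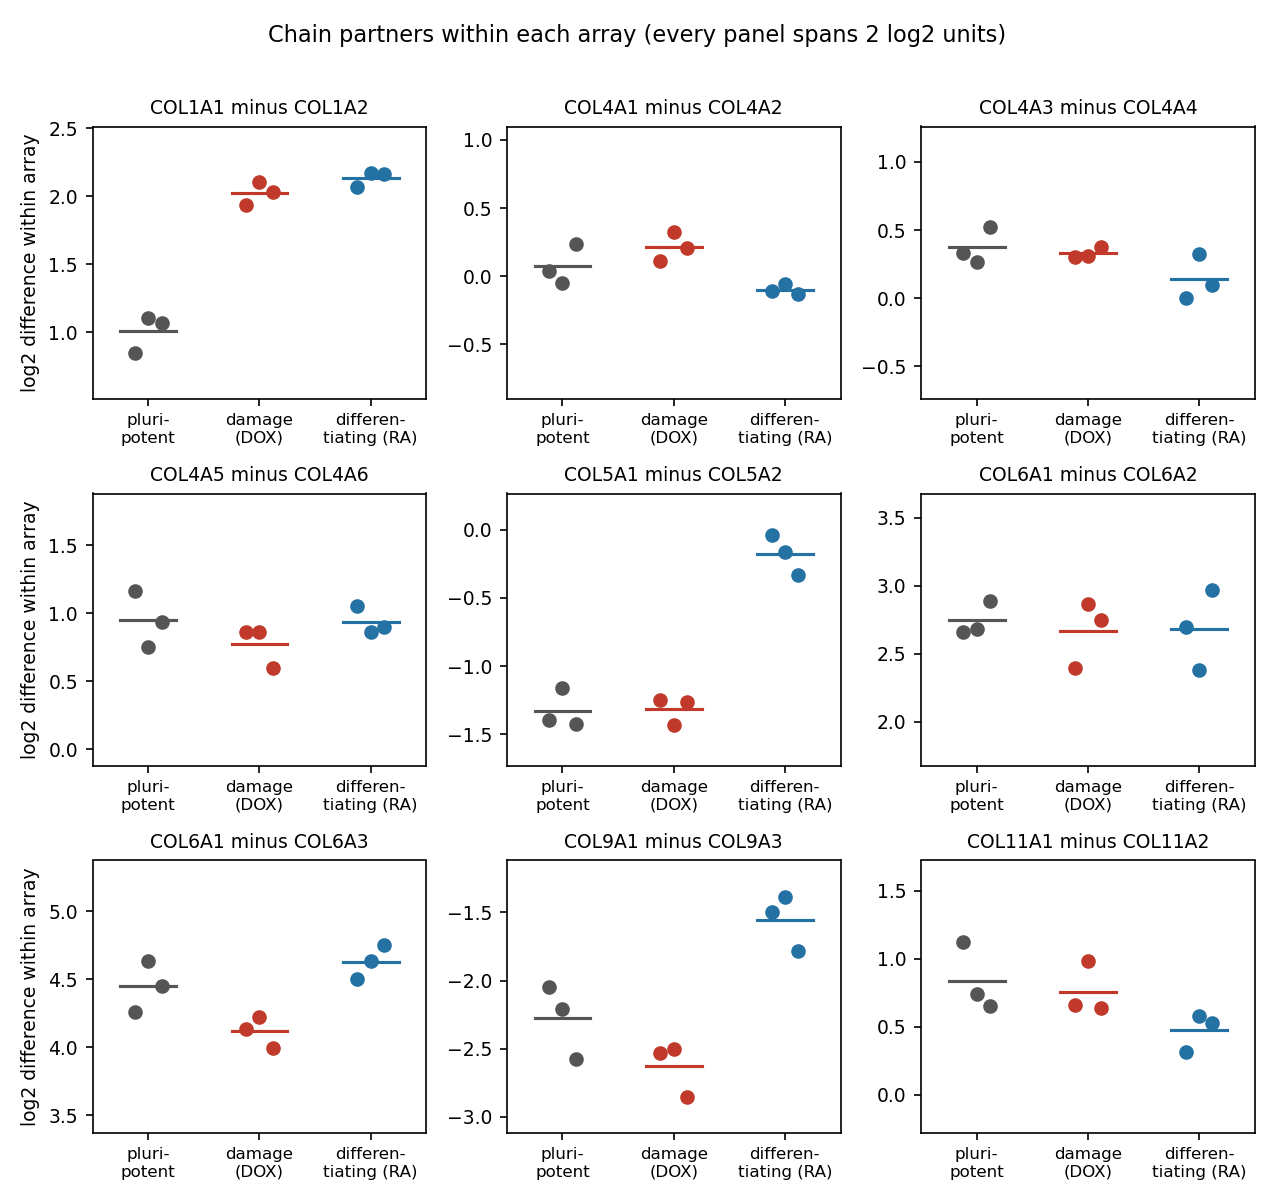
Log2 level of the first named chain minus that of its partner within each array, by condition, with 1 point per array and a bar for the group mean. COL1A1 minus COL1A2 is near 1 on pluripotent arrays and near 2 on all treated arrays, and COL5A1 minus COL5A2 is higher on the differentiating arrays, by 1.15.

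The probe sets of a gene did not always give the same change. Each of the 112 collagen probe sets was fitted alone among 54613 probe sets. After DOX 13 passed (11.6% against 7.71% of all probe sets), after RA 13 (11.6% against 2.95%) and for RA against DOX 19 (17.0% against 12.2%). Across the 3 comparisons 0 collagen genes had probe sets called in opposite directions. All 5 probe sets of COL1A1 have the suffix s_at or x_at, which marks probes that can also match other transcripts. Of these, 3 passed after each treatment, and the other 2 gave 0.04 and 0.09 after DOX and 0.02 and 0.06 after RA. For COL12A1, 3 of 5 passed after DOX and 2 of 5 after RA, with values from 0.07 to 1.52 and from -1.58 to 0.055. For COL27A1, 2 of 5 passed after DOX, the second at 0.66.

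**Figure D4:**
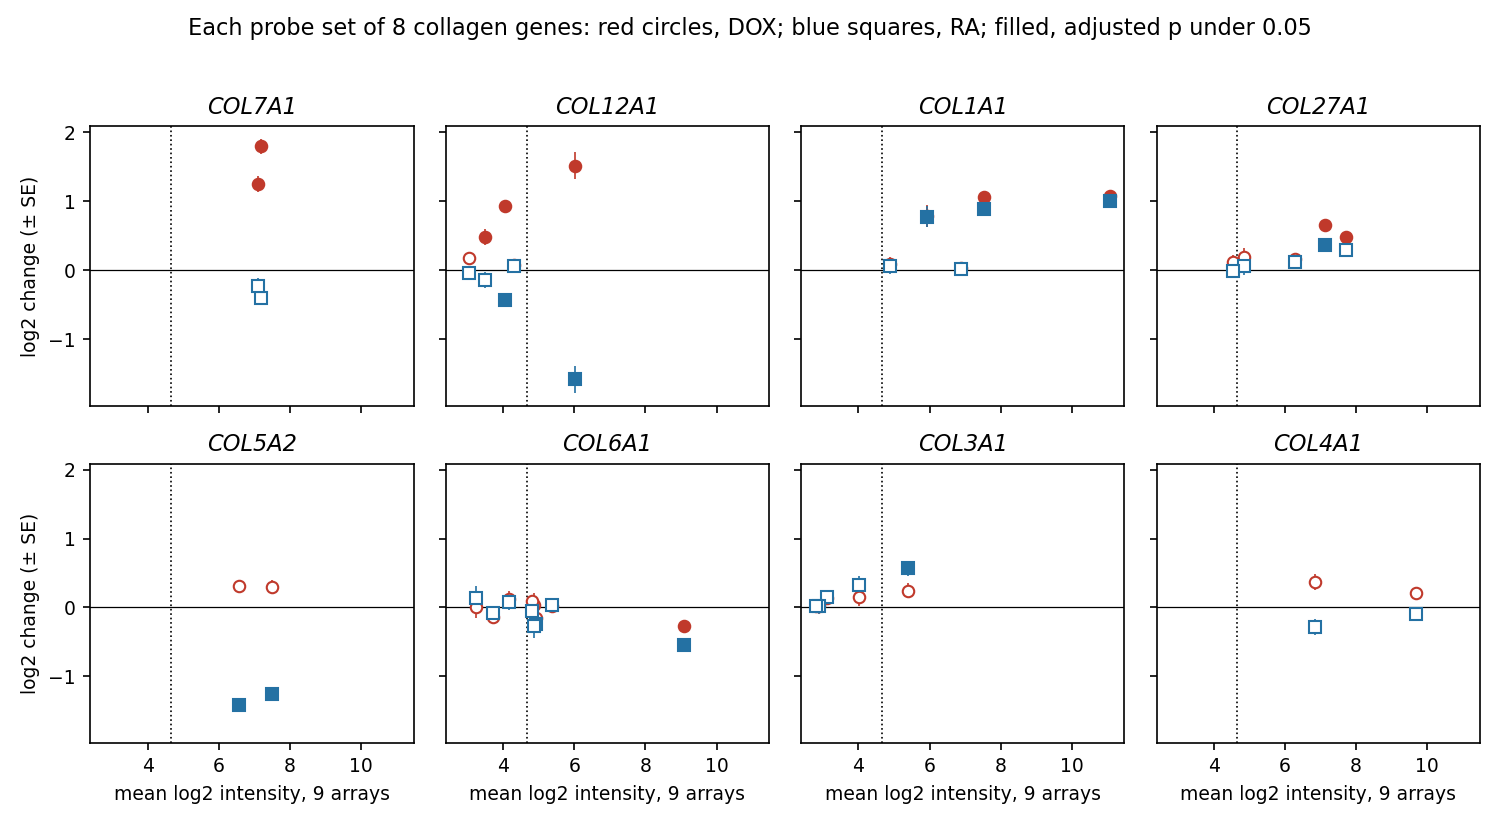
Log2 change ± SE of every probe set of 8 collagen genes after DOX (circles) and after RA (squares) against its mean log2 intensity over 9 arrays, filled where it passed at adjusted p under 0.05 over all probe sets, with the median probe set dotted. The 2 probe sets of COL7A1 stand at 1.80 and 1.25 after DOX and the 2 of COL5A2 at -1.26 and -1.41 after RA. The 5 of COL1A1 and the 5 of COL12A1 spread from near 0 to the value used for the gene. The 8 of COL6A1 lie on both sides of 0, from -0.27 to 0.13 after DOX and from -0.55 to 0.14 after RA.

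Genes that act on collagen were counted in lists chosen for their roles. Of 22 measured genes of collagen synthesis and folding, 3 rose and 4 fell after DOX (31.8% against 15.3% of all genes) and 1 rose and 1 fell after RA (9.09% against 6.47%). P4HA2, an alpha subunit of the prolyl 4-hydroxylase that stabilises the helix, rose after DOX by 0.89 (adjusted p = 4.2e-04), while P4HA1, the alternative subunit, fell by 0.49 (adjusted p = 0.019). With the mean of all probe sets the P4HA2 value was 0.52 and the P4HA1 value -0.26 (adjusted p = 0.072). Without probe sets of the suffixes s_at and x_at the P4HA1 value was -0.031 (adjusted p = 0.88). P3H4, a member of a collagen hydroxylation complex, fell by 0.45 (adjusted p = 0.021, a call lost in 5 of 15 other settings). CREB3L1, a transcription factor of collagen-secreting cells, rose by 0.40 (adjusted p = 0.029, and 0.13 with adjusted p = 0.30 with the mean of all probe sets). After RA, P3H2, a prolyl 3-hydroxylase, changed by -1.10 (adjusted p = 4.9e-04) on the probe set used and by 0.13 without probe sets of the suffixes s_at and x_at. TMEM38B, an ion channel of the endoplasmic reticulum, rose by 0.53 (adjusted p = 0.017, lost in 4 of 15).

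Of 13 genes of collagen processing and cross-linking, 1 fell after DOX (7.69% against 15.3% of all genes) and 1 after RA (7.69% against 6.47%). ADAMTS3, which trims a propeptide from procollagen, fell after DOX by 0.73 (adjusted p = 0.022, lost in 2 of 14 other settings), and without damage replicate 1 its change was -0.48 (adjusted p = 0.028). LOXL1, a lysyl oxidase that cross-links matrix, fell after RA by 0.51 (adjusted p = 0.015, lost in 2 of 15). Of 14 proteases that cut collagen and their inhibitors, 4 rose and 1 fell after DOX (35.7% against 15.3% of all genes), and 0 rose and 3 fell after RA (21.4% against 6.47%).

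TIMP1, an inhibitor of matrix proteases, stood at 9.24, 9.21 and 9.21 on the pluripotent, 9.80, 9.72 and 9.74 on the damage and 8.63, 8.53 and 8.55 on the differentiating arrays. The 3 groups were separate. It rose by 0.54 after DOX (adjusted p = 2.2e-04) and fell by 0.65 after RA (adjusted p = 1.0e-04). MMP9, a gelatinase, rose by 0.56 after DOX (adjusted p = 0.0095) and fell by 0.80 after RA (adjusted p = 0.0024). MMP2, the other gelatinase, rose by 0.42 after DOX (adjusted p = 0.0075). It fell by 0.42 after RA (adjusted p = 0.014, and -0.13 with adjusted p = 0.46 with the mean of all probe sets). TIMP3, an inhibitor bound to matrix, rose by 0.53 after DOX (adjusted p = 0.0022), and MMP16, a membrane-bound protease, fell by 0.62 (adjusted p = 0.0077). With the mean of all probe sets these changes were 0.87 and -0.20.

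Of 9 measured collagen receptors, 0 passed after DOX and 0 after RA (limma), against 15.3% and 6.47% of all genes. At an unadjusted p under 0.05 the count was 1 of 9 in each. For RA against DOX 1 of the 9 was called (11.1% against 21.2% of all genes). This was ITGB1, at -0.25 (limma adjusted p = 0.024, lost in 4 of 15 other settings). Of 15 matrix proteins that bind collagen, 0 passed after DOX, against 15.3% of all genes (2 at an unadjusted p under 0.05). After RA 1 fell (6.67% against 6.47% of all genes), SPARC, by 0.55 (adjusted p = 0.0014). Of 9 partners of type IV collagen in basement membranes, AGRN rose after DOX by 0.34 (adjusted p = 0.028, a call lost in 4 of 15 other settings; 11.1% of the 9 against 15.3% of all genes) and LAMC1, a laminin chain, fell after RA by 0.26 (adjusted p = 0.040, lost in 8 of 15; 11.1% against 6.47%). The arrays did not overlap for 6 of the 9 after DOX, all higher (66.7% against 28.9% of all genes). The median change was 0.17 after DOX. After RA the arrays did not overlap for 3, of which 2 were higher and 1 lower (33.3% against 22.6%). At an unadjusted p under 0.05 were 5 after DOX and 3 after RA.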

How the data were processed

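RNA of WA09 cells was measured on 9 Affymetrix arrays of 1 colour. The authors deposited log2 values per probe set, made with RMA and the package affy per the submitters' processing notes, with versions not given in the sources used here. This method normalises arrays by quantiles, which removes a shift shared by most genes, and compresses the changes of dim probe sets. That values are log2 was read from their range, 2.36 to 14.8.

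Of 54675 probe sets, 62 controls were left out. The annotation gave 1 gene for 41091, several for 1801 and none for 11721. For each of 19775 genes, the brightest probe set by its mean over the arrays was used. The Entrez identifiers of all 43 collagen genes were matched to the RefSeq table. All arrays entered 1 linear model of 3 groups, fitted by lmFit and eBayes (limma 3.58.1, R 4.3.3), with 4.63 prior and 6 residual degrees of freedom. Low values were not filtered. Calls are at a Benjamini-Hochberg adjusted p under 0.05 over all 19775 genes. The fit was tested on simulated data. Partner differences were tested with the two-sided exact permutation test. The number of arrays limits the precision, and 0 pairs of arrays held identical values.

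The collagens, the lists and the tests were chosen with earlier results of these data known. By rule, every collagen called in any comparison was named, with chain partners. Up to 4 called members per list with the largest absolute change were named for DOX and RA against pluripotent, and MMP2 was added for DOX. List members for RA against DOX are not described, apart from ITGB1, POSTN and FN1. The shares called there were 40.9% of synthesis, 23.1% of processing and 35.7% of degradation genes, against 21.2% of all genes. They were 20% of collagen-binding genes and 22.2% of type IV partners. Other markers are named as the largest or as those below the median probe set. That choice was made after their values were seen. Other settings tried were other probe sets (the mean of all, none with x_at or s_at, each alone), genes above the median only, a trended or robust spread, only the compared groups, further quantile normalization, centring, array weights, the replicate number as a block and leaving out each array.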

Additional observations from a re-analysis of the deposited data

How the results depend on the processing

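The number of collagens called was 6 to 10 after DOX, 7 to 9 after RA and 11 to 14 for RA against DOX when 1 array was left out. The RA count was 6 (1 higher, 5 lower) with the mean of all probe sets and 5 (0 higher, 5 lower) without x_at and s_at probe sets. COL1A1, 1 of the 2 higher genes, and COL9A3, 1 of the 8 lower ones, have no value in the latter setting, and the cause of the other losses was not tested. With the replicate number as a block it was 9 after DOX, 10 after RA (3 higher, 7 lower) and 13 for RA against DOX. The labels' numbers gave correlations of -0.10 to 0.20 over 9 same-numbered pairs, so they were not taken to pair the arrays. Under the planned settings, 1458 of 1654 values of named genes kept their direction and their side of the threshold, 137 were no longer called and 18 became called. Values that were not called changed sign in 35 cases, over 14 results. Called values changed sign in 6 cases, all from leaving out x_at and s_at probe sets: COL6A1 at 0.019 after DOX, 0.030 after RA and 0.012 for RA against DOX, P3H2 at 0.13 after RA, and POSTN at 0.0040 and FN1 at 0.10 for RA against DOX, with adjusted p from 0.497 to 0.989. Single probe sets, a setting chosen after seeing the data, changed sign for COL6A1 after DOX (0.089, 0.019, 0.042, 0.011 and 0.13), after RA (0.030, 0.14 and 0.074) and for RA against DOX (0.012, 0.066 and 0.13), for COL12A1 after RA (0.055), and for COL3A1 (-0.0027) and COL9A1 (-0.11) for RA against DOX. The precision is limited by 3 arrays per group, and values below the median probe set may be compressed.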
